A study of Mus musculus with 15 samples.

Results

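The interleukins, the tumour necrosis factor (TNF) superfamily and their receptors were followed through the aorta-gonad-mesonephros (AGM) region of the mouse embryo. Members were taken by gene name: Tnf, Lta and Ltb, every name starting with Tnfsf or Tnfrsf, and every name starting with Il and a digit, without Il17rd, a modulator of fibroblast growth factor signalling. The rule found 107 of the 28876 genes in the table, all annotated as protein coding. By role these were 31 interleukins, 42 interleukin receptors, 13 TNF superfamily ligands and 20 TNF superfamily receptors, with Il18bp, a soluble protein that binds interleukin 18, counted among the receptors. The remaining member, Il4i1, is an enzyme that only carries the name of an interleukin.

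Interleukins are small secreted proteins through which leukocytes, endothelium and stroma signal to each other, and most act through receptors built from a ligand-binding chain and a signalling chain that several ligands share. The gp130 chain (Il6st) is shared by the interleukin 6 family, the common gamma chain (Il2rg) by interleukins that act on lymphoid cells, and Il1rap by the interleukin 1 family. TNF superfamily ligands are trimers, many held on the cell surface, that cluster their receptors and lead to NF-kB activation or to cell death, while decoy receptors bind a ligand without passing on its signal. Inflammatory signals of both families are known to act on hemogenic endothelium and on nascent hematopoietic stem cells (HSCs), which arise in the AGM region.

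RNA was sequenced from tissue of C57BL/6 embryos at embryonic day E9.5 and E10.5. The dorsal aorta with its surroundings was cut into a dorsal part (AoD) and a ventral part (AoV) at both stages, and the E10.5 set also has the urogenital ridges (UGR), where the mesonephros and the gonad primordium lie. This gave the groups E9 AoD and E9 AoV at the earlier stage and 3 groups (E10 UGR, E10 AoV and E10 AoD) at the later one, with 3 libraries in each of the 5. A library holds the combined tissue of 15 to 34 embryos, and the collections were separate experiments. The samples are whole tissue, so each library mixes endothelium, blood and the neighbouring organs, and p-values measure the spread between such pools. Levels are given in reads-per-million (RPM) in the order of replicates 1, 2 and 3, and differences as log2 fold changes on log2(RPM + 0.1) with their standard error (SE) from limma. A difference was called at an adjusted p (Benjamini-Hochberg, over all tested genes) below 0.05 together with a log2 fold change of 1 or more in either direction.

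Depth, worked out from the steps between low values, was between 33.75 and 48.63 megareads per library, so that 3 reads correspond to between 0.0617 and 0.0889 RPM. Marker lists for the tissues that a dissection could hold were summed in each library, and no listed marker was at 0 in any group. Endothelial markers summed to 284 to 384 RPM in E9 AoD and to between 455 and 668 RPM in the other 4 groups. Markers of dorsal tissue (notochord, sclerotome and neural tube) summed to 231 to 362 RPM in E9 AoD and 423 to 554 RPM in E10 AoD and to at most 72.9 RPM in the other groups. Of these, Shh was not lower in E9 AoV (mean 42.1 RPM) than in E9 AoD (38.6 RPM). The E10 AoD sum was mostly Pax1 (299 RPM). Sox2 (23.3 RPM) and Zic1 (29.3 RPM) were lower in E10 AoD than in E9 AoD (107 and 57.3 RPM). The groups also differed in tissue next to the aorta. The 5 liver and gut endoderm markers reached 445 to 649 RPM in E9 AoV and at most 32.0 RPM elsewhere, and the 6 urogenital ridge markers reached 348 to 374 RPM in E10 AoV and 582 to 626 RPM in E10 UGR and at most 94.8 RPM elsewhere. Macrophage markers (9 of 10 names in the table) summed to 5.81 to 14.1 RPM at E9.5 and to 38.1 to 73.3 RPM at E10.5. In such bulk tissue, fewer cells of a type and less RNA per cell cannot be told apart.

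**Figure D1:**
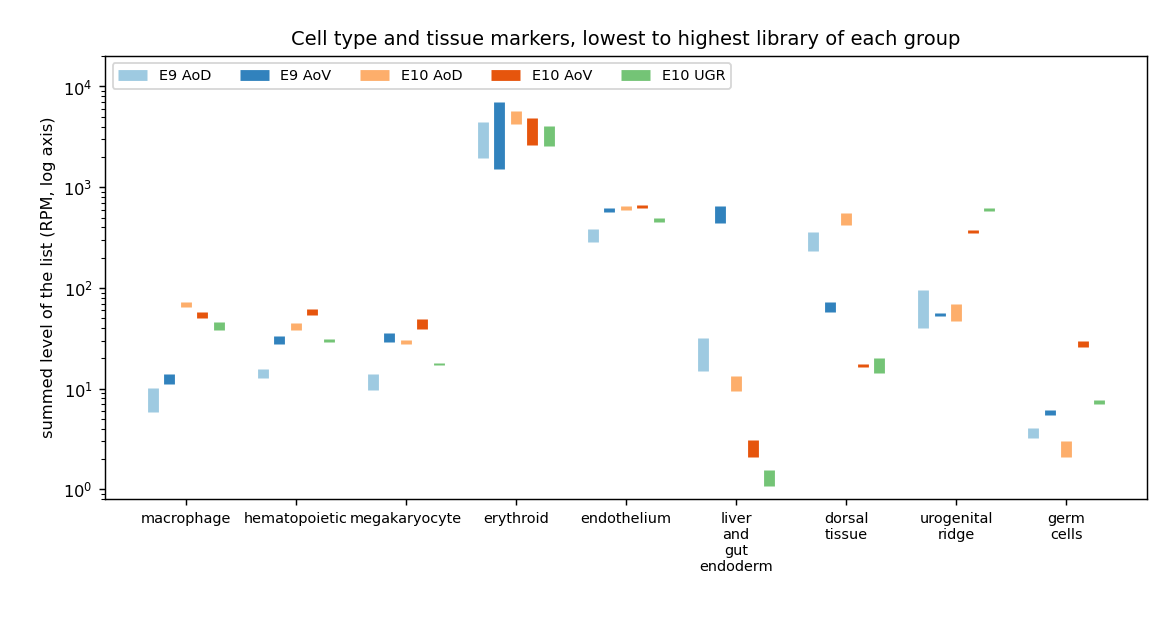
Summed level of each marker list (RPM, log axis), with a bar from the lowest to the highest of the 3 libraries of each group. Liver and gut endoderm markers stand at 445 to 649 RPM in E9 AoV, macrophage markers are higher in every E10.5 library (38.1 RPM or more) than in every E9.5 library (14.1 RPM or less), and urogenital ridge markers are highest in E10 UGR and E10 AoV.

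Of the 107 members, 55 reached 0.5 RPM in at least 1 library and were tested, and 52 stayed below 0.5 RPM in all 15. Receptors made up most of the 55: 27 of 42 interleukin receptors and 17 of 20 TNF receptors passed, against 5 of 31 interleukins (Il15, Il16, Il17b, Il17d and Il33) and 5 of 13 TNF ligands (Tnf, Ltb, Tnfsf9, Tnfsf12 and Tnfsf18). Over the whole table, 18553 of 28876 genes passed the same filter. The 26 interleukins below 0.5 RPM in every library were Il1a, Il1b, Il1f5, Il1f9, Il1rn, Il2, Il4, Il5, Il6, Il7, Il10, Il11, Il12a, Il12b, Il13, Il17c, Il17f, Il18, Il19, Il21, Il22, Il23a, Il24, Il25, Il27 and Il34. The 15 interleukin receptors below it were Il1r2, Il1rapl2, Il1rl1, Il2ra, Il2rb, Il5ra, Il7r, Il8ra, Il9r, Il12rb1, Il13ra2, Il18r1, Il18rap, Il20ra and Il22ra2. The 8 TNF ligands were Lta, Tnfsf4, Tnfsf8, Tnfsf10, Tnfsf11, Tnfsf13b, Tnfsf14 and Tnfsf15, and the 3 TNF receptors were Tnfrsf8, Tnfrsf13c and Tnfrsf17. The threshold cut through a continuous range, with Il19 (0.487 RPM), Il34 (0.452 RPM) and Tnfsf11 (0.396 RPM) just under it at their highest and Il15ra (0.524 RPM), Il17rb (0.564 RPM) and Ltb (0.588 RPM) just over it.

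Low did not always mean near the limit of counting. Only 19 of the 52 never exceeded 3 reads in any library, among them Il4, Il5, Il6, Il10, Il13, Il21, Il22 and Il27 and the receptors Il2ra, Il5ra and Il7r, and for these a lower level was not detectable at this depth. Il6 (interleukin 6) was highest at 0.0696 RPM and Il1b (interleukin 1 beta), a main inflammatory cytokine of macrophages, at 0.10 RPM. Il3 and Tnfsf13 were not analysed here. At the other end, 28 members were at or above 0.5 RPM in all 15 libraries.

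**Figure D2:**
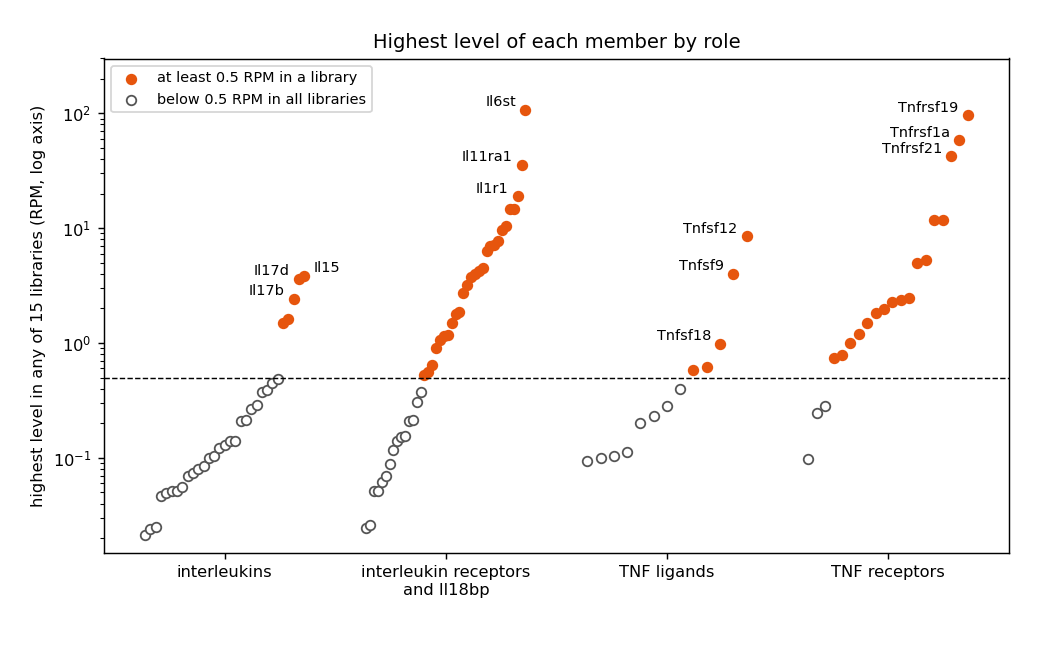
Highest level of each member in any of the 15 libraries (RPM, log axis), ordered within its role, with the 3 highest of each role named and a dashed line at 0.5 RPM; Il4i1 is not drawn. Filled points reach 0.5 RPM in at least 1 library (5 of 31 interleukins, 27 of 42 interleukin receptors, 5 of 13 TNF ligands, 17 of 20 TNF receptors).

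Per kilobase of exon, which allows levels of different genes to be compared, the most abundant members over the 15 libraries were Tnfrsf1a, the main receptor for TNF, at a mean of 16.9 RPM per kb, and Il6st at 16.3 RPM per kb. Tnfrsf19 (9.11 RPM per kb), Tnfrsf21 (8.21 RPM per kb) and Il11ra1 (5.61 RPM per kb) followed, and the highest interleukin, Il17d, was at 1.37 RPM per kb. Summed over all 42 members, interleukin receptors were lowest in E9 AoD (135 ± 10.1 RPM, SD, n = 3) and highest in E10 AoV (234 ± 6.78 RPM). The 20 TNF receptors summed to 170 ± 16.1 RPM in E9 AoD and 169 ± 5.70 RPM in E9 AoV and to less in E10 AoD (132 ± 1.63 RPM) and E10 AoV (123 ± 2.65 RPM). The lower E10.5 sums came from Tnfrsf19 and do not describe most TNF receptors. Tnfrsf19 alone went from a mean of 77.7 to 18.5 RPM in AoD and from 68.6 to 16.3 RPM in AoV. The median log2 fold change of the 17 tested TNF receptors between the stages was 0.52 in the dorsal and 0.32 in the ventral part. E9 AoD held the lowest group mean for 32 of the 55 tested members, and E10 AoV the highest for 16. The same count was not made over all tested genes, so it cannot be called particular to the members.

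Receptors often reached 0.5 RPM in some library while their ligand reached it in none. A partner was counted if it reached 0.5 RPM in any library, whether or not the other reached it in the same one. Of 51 ligand and receptor pairs with both genes in the table, both partners reached 0.5 RPM in 7, the receptor alone in 31, the ligand alone in 2 and neither in 11. The 7 pairs were Tnf with Tnfrsf1a and with Tnfrsf1b, Tnfsf9 with Tnfrsf9, Tnfsf12 with Tnfrsf12a, Tnfsf18 with Tnfrsf18, Il15 with Il15ra and Il17b with Il17rb. Tnfsf18 with Tnfrsf18 and Il17b with Il17rb did not reach it together in any library, and Il15ra reached it in 1 library. The pairs with only the ligand were Il33 with Il1rl1, its receptor, which was at most at 0.307 RPM, and Il15 with Il2rb. Receptors whose ligands among the members stayed below 0.5 RPM included Il6ra (Il6), Il1r1 (Il1a and Il1b), Il21r (Il21) and Tnfrsf11a (Tnfsf11). Of these ligands, Il1a exceeded 3 reads in 14 libraries (at most 0.392 RPM) and Tnfsf11 in 12 (at most 0.396 RPM). The shared chain Il6st also serves ligands that the name rule does not reach, of which Clcf1 was at group means of 2.60 to 12 RPM and Cntf at 7.95 to 9.90 RPM. RNA of a ligand made outside the dissected tissue was not measured.

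The study asked which genes accompany the gain of HSC-supporting activity between E9.5 and E10.5 and its ventral bias. Between the stages, 14 of 107 members (25.5% of the 55 tested) were called in the ventral part, 8 higher and 6 lower at E10.5, while 11.0% of all tested genes were called, 6.04% higher and 4.99% lower. In the dorsal part 24 members (43.6% of those tested) were called, 20 higher and 4 lower, beside 12.6% of all tested genes (8.60% higher, the others lower). The median log2 fold change of the tested members was 0.33 in the ventral and 0.62 in the dorsal part, and the median of all tested genes was 0.00 in both. Between positions, AoV differed from AoD in 14 members at E9.5 (13 higher in AoV, 1 lower) beside 11.8% of all genes (8.32% higher, 3.47% lower), and in 8 members at E10.5 (7 higher, 1 lower) beside 10.1% of all genes (5.81% higher, 4.29% lower). Against E10 UGR, 7 members were called in E10 AoV (6 higher, 1 lower, beside 7.57% of all genes, 3.84% higher and 3.73% lower), while E10 AoD had 11 calls (4 higher, 7 lower, beside 11.3%, 4.76% higher and 6.56% lower), both comparisons using the same UGR libraries. In all, 32 members were called in at least 1 comparison and 23 tested members in none. Calls in any comparison were not counted over all tested genes, so this count cannot be called particular to the members.

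Library ranges that do not overlap were common among all genes. They were found for 37 tested members between the ventral stages and 42 between the dorsal stages, where 55.0% and 60.7% of all tested genes also had them. Between positions they were found for 30 members at E9.5 and 30 at E10.5 (51.3% and 49.5% of all genes), and against E10 UGR for 30 in E10 AoV and 34 in E10 AoD (48.6% and 50.9% of all genes). For low members the size of the fold change depends on the pseudocount: of 86 called differences of the named members, 29, from 12 members, passed under every alternative and 71 under every one that tested them other than a pseudocount of 1 RPM. The 12 were Il1r1, Il2rg, Il13ra1, Il17d, Il17re, Il28ra, Il31ra, Tnfrsf11b, Tnfrsf12a, Tnfrsf13b, Tnfrsf19 and Tnfrsf26. None of the 86 changed direction under any alternative.

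**Figure D3:**
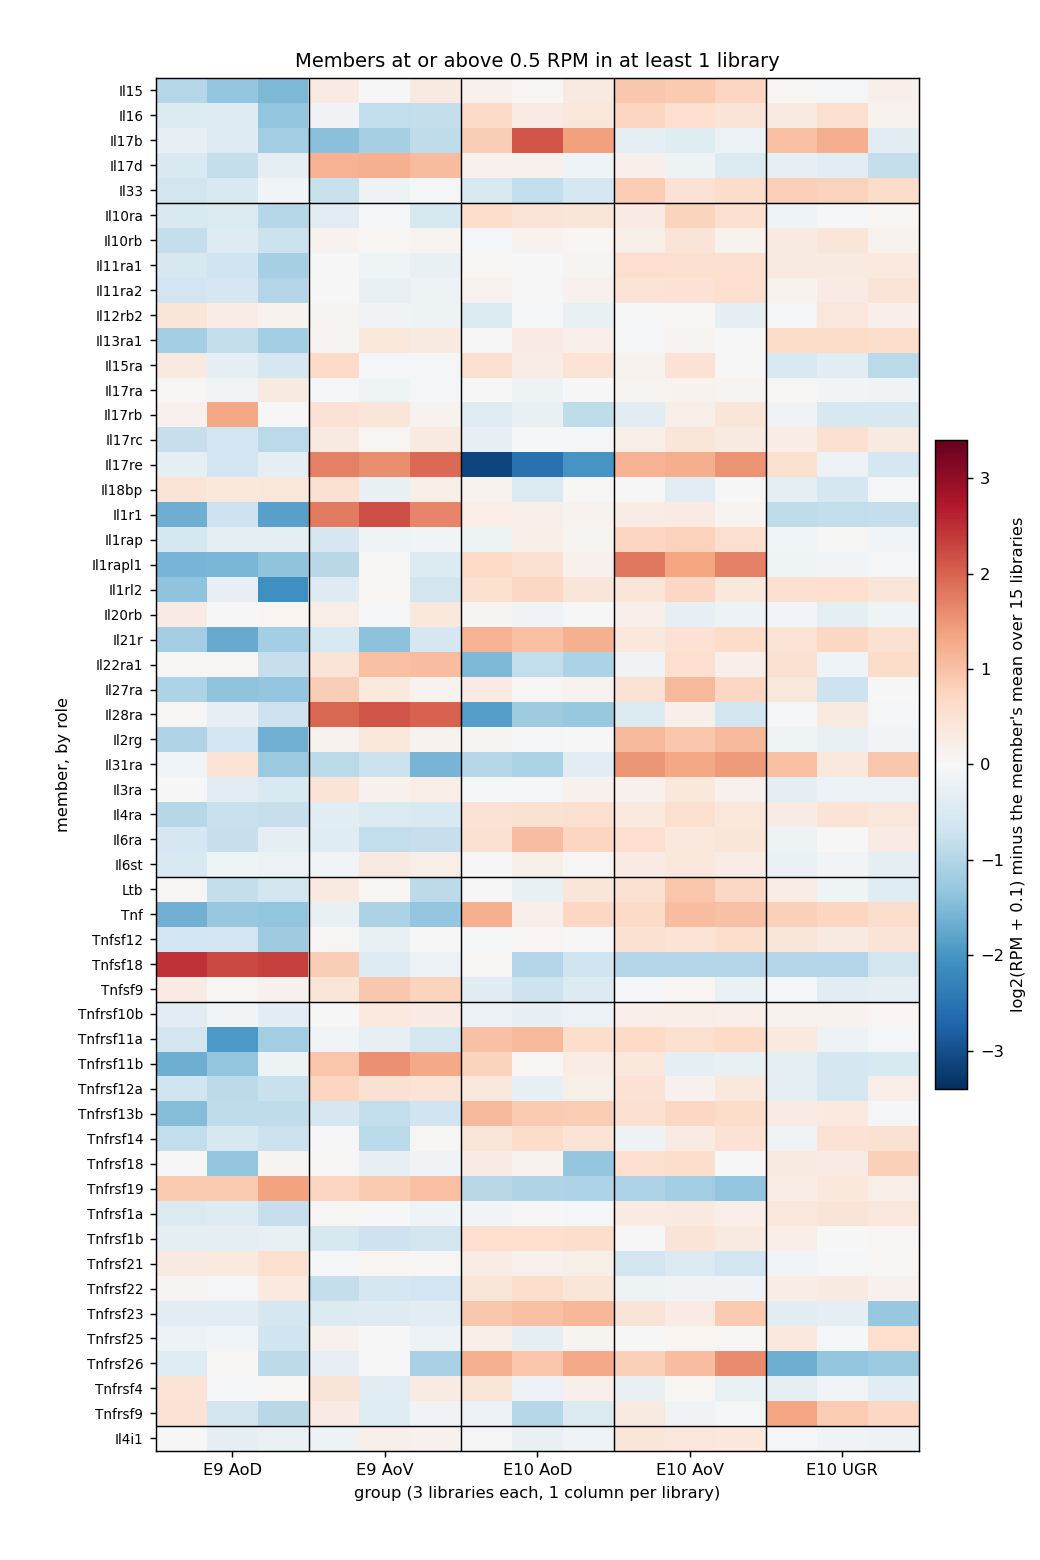
Level of the 55 tested members (1 line each, by role) in the 15 libraries (columns), as log2(RPM + 0.1) minus the member's mean over all libraries, red above and blue below the mean. The E9 AoD columns are mostly blue, as 32 members had their lowest group mean there (a count not made over all tested genes), and Il1r1, Il28ra, Il17d and Tnfrsf11b are red in the 3 E9 AoV columns.

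Among the interleukins, Il15, which supports natural killer and memory T cells, was lowest in E9 AoD. Il15 was at 0.959, 0.725 and 0.620 RPM in E9 AoD and 2.39, 1.97 and 2.47 RPM in E9 AoV. At E10.5 Il15 was at 2.18, 2.08 and 2.46 RPM in E10 AoD, 3.84, 3.73 and 3.33 RPM in E10 AoV and 2.07, 1.87 and 2.25 RPM in E10 UGR. All E9 AoD libraries lay below all others, and Il15 rose by 1.45 log2 units (SE 0.146, adjusted p = 9.76e-07) from E9 AoD to E10 AoD, was higher in E9 AoV than in E9 AoD by 1.47 log2 units (SE 0.146, adjusted p = 1.19e-06), and reached its highest levels in E10 AoV, above both other E10.5 groups without overlap. Il16, a chemoattractant for cells that carry CD4, was higher at E10.5 in both parts. It was at 0.590, 0.604 and 0.280 RPM in E9 AoD and 0.780, 0.435 and 0.447 RPM in E9 AoV. At E10.5 Il16 was at 1.40, 1.07 and 1.14 RPM in E10 AoD, 1.49, 1.31 and 1.19 RPM in E10 AoV and 1.09, 1.30 and 0.949 RPM in E10 UGR. The E9.5 and E10.5 aorta libraries did not overlap, with a rise of 1.16 log2 units (SE 0.245, adjusted p = 0.0013) in the ventral and 1.19 log2 units (SE 0.245, adjusted p = 0.000766) in the dorsal part, the latter falling to 0.89 without E9 AoD replicate 3. Exons of Il16 overlap other genes over 17.4% of their length, and counting by strand was not stated.

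The interleukin 17 family ligands went different ways. Il17d was at 1.01, 0.806 and 1.18 RPM in E9 AoD and 3.53, 3.62 and 3.26 RPM in E9 AoV. At E10.5 Il17d was at 1.67, 1.68 and 1.35 RPM in E10 AoD, 1.69, 1.33 and 1.05 RPM in E10 AoV and 1.21, 1.15 and 0.817 RPM in E10 UGR. E9 AoV stood above every other group, 1.71 log2 units (SE 0.185, adjusted p = 2.75e-06) above E9 AoD, and Il17d fell by 1.32 log2 units (SE 0.185, adjusted p = 4.06e-05) to E10 AoV. Liver and gut endoderm markers were also highest in E9 AoV, and their part in the levels of Il17d and of Tnfrsf11b, described with the TNF receptors, was not tested. Il17b, a ligand of Il17rb, was instead highest in E10 AoD. It was at 0.369, 0.322 and 0.150 RPM in E9 AoD and 0.114, 0.162 and 0.214 RPM in E9 AoV. At E10.5 Il17b was at 0.922, 2.43 and 1.40 RPM in E10 AoD, 0.363, 0.333 and 0.396 RPM in E10 AoV and 1.07, 1.25 and 0.338 RPM in E10 UGR. The rise to E10 AoD was 2.10 log2 units (SE 0.397, adjusted p = 0.000378), and E10 AoV differed from E10 AoD by -1.76 log2 units (SE 0.397, adjusted p = 0.00273), with no overlap although the E10 AoD libraries themselves spread widely. Il17b reached 0.5 RPM only in E10 AoD and E10 UGR libraries. It so passed the filter through groups where it was high, which its adjusted p-values do not allow for. Il33, an alarmin stored in the nuclei of endothelial and stromal cells, was high in E10 AoV and E10 UGR. Il33 was at 0.516, 0.564 and 0.791 RPM in E9 AoD and 0.456, 0.742 and 0.808 RPM in E9 AoV. At E10.5 Il33 was at 0.564, 0.427 and 0.521 RPM in E10 AoD, 1.63, 1.23 and 1.37 RPM in E10 AoV and 1.57, 1.52 and 1.35 RPM in E10 UGR. E10 AoV and E10 UGR overlapped with each other and lay above all other libraries, with E10 AoV 1.32 log2 units (SE 0.199, adjusted p = 9.2e-05) above E10 AoD and E10 AoD at -1.39 log2 units (SE 0.199, adjusted p = 4.86e-05) against E10 UGR. The summed urogenital ridge markers were also high in these same groups, in E10 AoV mostly through Wt1 and Lhx9, and their part in the result was not tested.

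Receptors of the interleukin 6 family surround the shared gp130 chain, Il6st (ENSMUSG00000021756). Il6st was at 58.4, 76.3 and 73.5 RPM in E9 AoD and 78.3, 104 and 95.7 RPM in E9 AoV. At E10.5 Il6st was at 83.4, 95.6 and 86.8 RPM in E10 AoD, 101, 107 and 99.2 RPM in E10 AoV and 71.8, 78.1 and 67.4 RPM in E10 UGR. E10 AoV was above E10 AoD and E10 UGR without overlap, but no comparison passed the fold threshold, the largest being 0.50 log2 units (SE 0.106, adjusted p = 0.00231) against E10 UGR. Il6ra, the chain that binds interleukin 6, rose in both parts. It was at 0.516, 0.430 and 0.641 RPM in E9 AoD and 0.593, 0.417 and 0.428 RPM in E9 AoV. At E10.5 Il6ra was at 1.20, 1.78 and 1.42 RPM in E10 AoD, 1.25, 1.07 and 1.12 RPM in E10 AoV and 0.711, 0.802 and 1.01 RPM in E10 UGR. Every E10.5 library was above every E9.5 library, by 1.12 log2 units (SE 0.187, adjusted p = 0.000199) in the ventral and 1.31 log2 units (SE 0.187, adjusted p = 2.91e-05) in the dorsal part, while its ligand Il6 was never above 0.0696 RPM. Il11ra1, the receptor chain for interleukin 11, was at 16.3, 15.0 and 10.8 RPM in E9 AoD and 24.2, 21.4 and 20.0 RPM in E9 AoV. At E10.5 Il11ra1 was at 24.8, 23.6 and 25.3 RPM in E10 AoD, 35.6, 35.2 and 34.7 RPM in E10 AoV and 29.6, 29.8 and 30.2 RPM in E10 UGR. E10 AoV was again highest and E9 AoD lowest, with differences below the fold threshold (0.69 log2 units, SE 0.112, adjusted p = 0.000155 and 0.82 log2 units, SE 0.112, adjusted p = 1.87e-05 between the stages), and 40.0% of its 50-base windows also occur in other genes, so that its reads cannot be assigned with certainty.

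Il31ra (ENSMUSG00000050377, chr13:113313018-113370870 in NCBIM37), which forms the interleukin 31 receptor together with Osmr, had the largest rise of all members in the ventral aorta. Il31ra was at 0.836, 1.29 and 0.321 RPM in E9 AoD and 0.433, 0.510 and 0.238 RPM in E9 AoV. At E10.5 Il31ra was at 0.410, 0.376 and 0.663 RPM in E10 AoD, 2.75, 2.38 and 2.65 RPM in E10 AoV and 1.93, 1.19 and 1.80 RPM in E10 UGR. All 3 E10 AoV libraries lay above all 12 others, 2.49 log2 units (SE 0.355, adjusted p = 4.62e-05) above E9 AoV and 2.24 log2 units (SE 0.355, adjusted p = 0.000148) above E10 AoD, 2 comparisons that share the E10 AoV libraries. E10 UGR came next and E10 AoD was below it by 1.58 log2 units (SE 0.355, adjusted p = 0.00233), while the step from E10 UGR to E10 AoV (0.66 log2 units, SE 0.355, adjusted p = 0.19) did not pass. The sum of the urogenital ridge markers was also higher in E10 AoV (348 to 374 RPM) and E10 UGR (582 to 626 RPM) than in E10 AoD (46.7 to 68.8 RPM). In E10 AoV it was mostly Wt1 and Lhx9. Germ cell markers (4 genes) were at 25.9 to 29.5 RPM in E10 AoV, 7.0 to 7.65 RPM in E10 UGR, 2.11 to 3.04 RPM in E10 AoD and at most 6.17 RPM at E9.5. The part of either list in the level of Il31ra, and of germ cell markers in those of Il1rap, Il1rapl1 and Il2rg, which were also highest in E10 AoV, was not tested. Il27ra, which signals with gp130 for interleukin 27, was lowest in E9 AoD. It was at 0.123, 0.0806 and 0.0855 RPM in E9 AoD and 0.729, 0.487 and 0.405 RPM in E9 AoV. At E10.5 Il27ra was at 0.461, 0.376 and 0.403 RPM in E10 AoD, 0.545, 0.896 and 0.652 RPM in E10 AoV and 0.504, 0.185 and 0.366 RPM in E10 UGR. E9 AoD did not overlap with any other group, 1.39 log2 units (SE 0.266, adjusted p = 0.000417) below E10 AoD and 1.68 log2 units (SE 0.266, adjusted p = 0.000109) below E9 AoV.

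**Figure D4:**
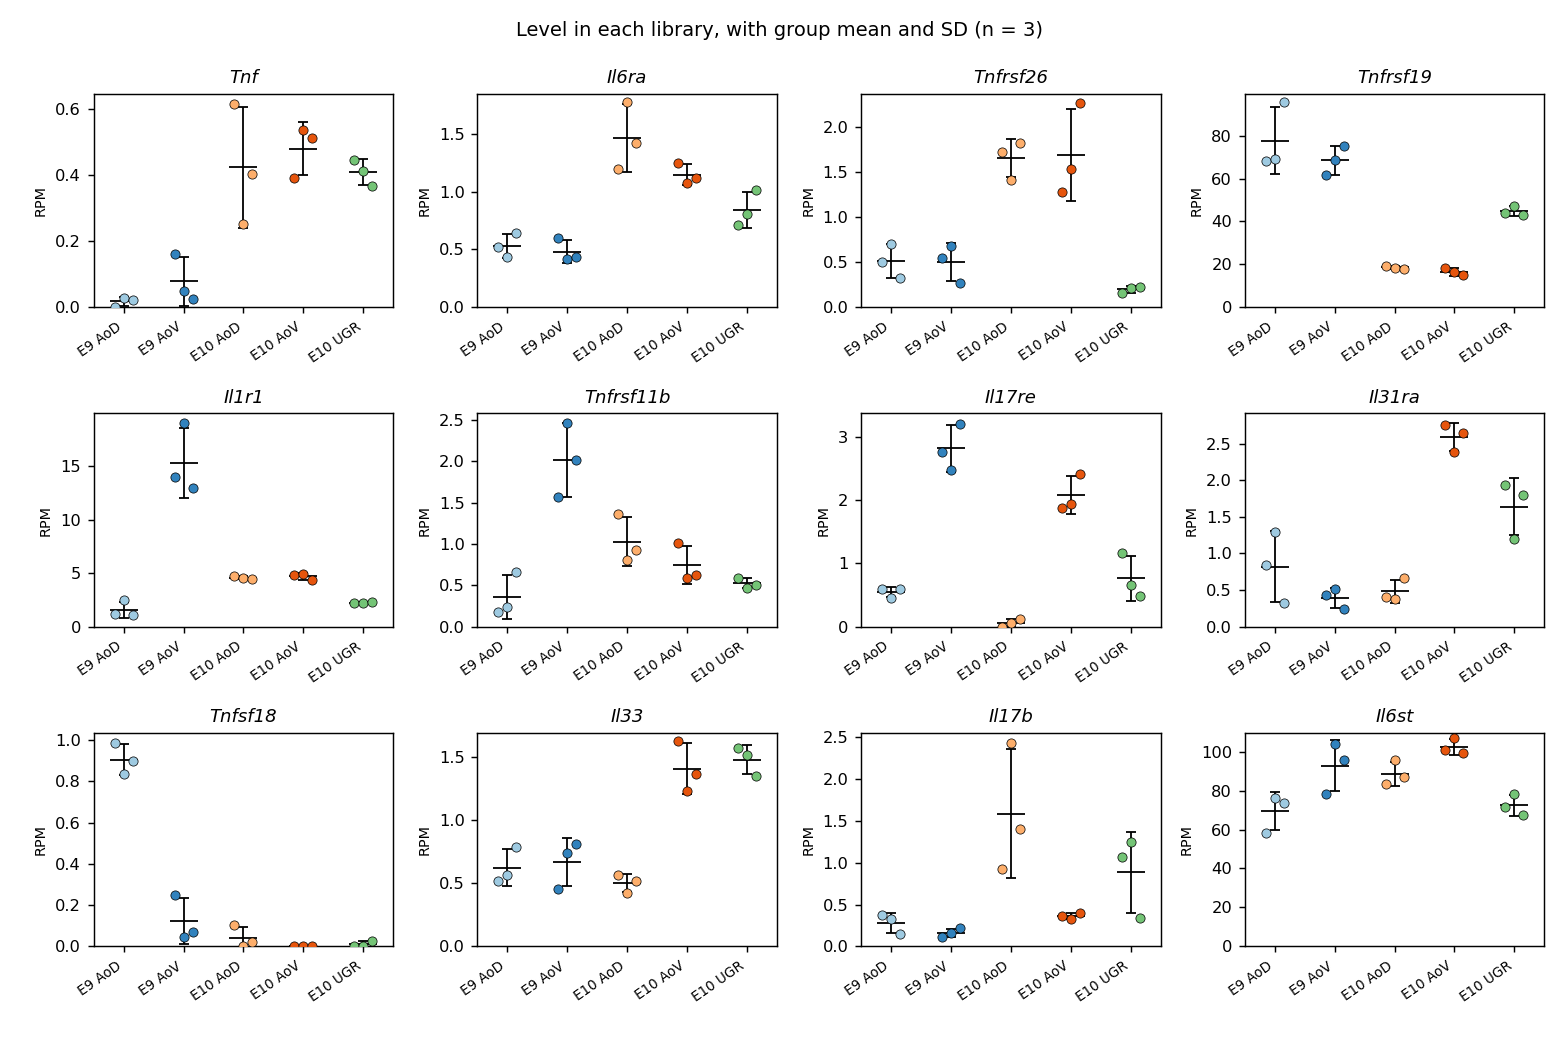
Level of 12 members (RPM) in each library (points) with the group mean and SD (n = 3), each panel on its own scale from 0. Tnf, Il6ra and Tnfrsf26 are higher in both aorta parts at E10.5, Il1r1 and Tnfrsf11b stand out in E9 AoV (12.9 to 19.0 RPM and 1.57 to 2.46 RPM), Il31ra and Il33 in E10 AoV and E10 UGR, and Tnfrsf19 falls from 61.6 RPM or more to 19.3 RPM or less.

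In the interleukin 1 family, the signalling receptor Il1r1 (ENSMUSG00000026072, chr1:40281925-40373043) moved in opposite directions in the dorsal and ventral parts. Il1r1 was at 1.20, 2.45 and 1.05 RPM in E9 AoD and 14.0, 19.0 and 12.9 RPM in E9 AoV. At E10.5 Il1r1 was at 4.71, 4.54 and 4.43 RPM in E10 AoD, 4.83, 4.91 and 4.35 RPM in E10 AoV and 2.16, 2.20 and 2.28 RPM in E10 UGR. The 3 E9 AoV libraries were far above all others, 3.28 log2 units (SE 0.222, adjusted p = 2.48e-08) above E9 AoD, and from there Il1r1 fell by 1.66 log2 units (SE 0.222, adjusted p = 2.41e-05) in the ventral part while it rose by 1.58 log2 units (SE 0.222, adjusted p = 2.63e-05) in the dorsal part, so that the E10.5 aorta libraries overlapped. Both E10.5 parts were above E10 UGR, by 1.05 log2 units (SE 0.222, adjusted p = 0.00223) in E10 AoV and 1.01 log2 units (SE 0.222, adjusted p = 0.00199) in E10 AoD, the latter dropping to 0.99 without E10 AoD replicate 1 or without E10 UGR replicate 1. Liver and gut endoderm markers were at 445 to 649 RPM in E9 AoV and at most at 32.0 RPM elsewhere, and their part in the E9 AoV level was not tested. The accessory chain Il1rap was at 5.53, 6.72 and 6.65 RPM in E9 AoD and 5.61, 7.56 and 7.84 RPM in E9 AoV. At E10.5 Il1rap was at 7.51, 9.79 and 8.90 RPM in E10 AoD, 14.1, 14.6 and 12.2 RPM in E10 AoV and 7.94, 8.59 and 7.91 RPM in E10 UGR. It was highest in all 3 E10 AoV libraries, with a difference of 0.96 log2 units (SE 0.131, adjusted p = 2.81e-05) from E9 AoV that stayed just below the fold threshold. The ligand Il1b stayed below 0.5 RPM throughout.

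Il1rapl1, a member of the receptor family better known at synapses of neurons, was lowest in E9 AoD and highest in E10 AoV. Il1rapl1 was at 0.0246, 0.0269 and 0.0428 RPM in E9 AoD and 0.0912, 0.278 and 0.166 RPM in E9 AoV. At E10.5 Il1rapl1 was at 0.487, 0.427 and 0.308 RPM in E10 AoD, 1.17, 0.844 and 1.12 RPM in E10 AoV and 0.237, 0.247 and 0.253 RPM in E10 UGR. E10 AoV was above every other library, 2.08 log2 units (SE 0.233, adjusted p = 4.11e-06) above E9 AoV, 1.18 log2 units (SE 0.233, adjusted p = 0.000992) above E10 AoD and 1.72 log2 units (SE 0.233, adjusted p = 4.83e-05) above E10 UGR. Il1rapl1 reached 0.5 RPM only in the 3 E10 AoV libraries, so it passed the filter through the group where it was high. Its adjusted p-values do not allow for that selection. In the dorsal part it rose by 1.93 log2 units (SE 0.233, adjusted p = 5.68e-06). The E9 AoD value rests on about 4 reads, and the ratio of E10 AoD to E9 AoD was 12.6 with a 95% counting interval from 4.62 to 48.1. Between the parts at E9.5 the difference (1.03 log2 units, SE 0.233, adjusted p = 0.00205) was lost without E9 AoD replicate 1 or without E9 AoV replicate 2, at 0.99 and 0.78.

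The common gamma chain Il2rg, without which lymphoid cells do not develop, was highest in E10 AoV. Il2rg was at 3.34, 4.35 and 2.12 RPM in E9 AoD and 7.45, 8.74 and 7.42 RPM in E9 AoV. At E10.5 Il2rg was at 7.25, 6.70 and 6.89 RPM in E10 AoD, 14.8, 13.0 and 14.8 RPM in E10 AoV and 6.19, 5.72 and 6.39 RPM in E10 UGR. Each E10 AoV library was at least at 13.0 RPM and no other exceeded 8.74 RPM, and E10 AoV was above E10 UGR by 1.20 log2 units (SE 0.176, adjusted p = 9.53e-05) and above E10 AoD by 1.02 log2 units (SE 0.176, adjusted p = 0.000306), the latter 0.99 without E10 AoD replicate 2 or without E10 AoV replicate 1 or 3. E9 AoD was lowest, 1.29 log2 units (SE 0.176, adjusted p = 2.53e-05) below E9 AoV and 1.12 log2 units (SE 0.176, adjusted p = 7.16e-05) below E10 AoD, the latter 0.85 without E9 AoD replicate 3. An annotated gene, Gm20489, overlaps 30.5% of the exon length of Il2rg, and reads there cannot be assigned to either with certainty. Of the private chains that pair with Il2rg, Il21r, the receptor for interleukin 21, rose in both parts. It was at 0.123, 0.0537 and 0.128 RPM in E9 AoD and 0.251, 0.0928 and 0.238 RPM in E9 AoV. At E10.5 Il21r was at 1.05, 0.928 and 1.07 RPM in E10 AoD, 0.545, 0.614 and 0.675 RPM in E10 AoV and 0.593, 0.720 and 0.620 RPM in E10 UGR. Every E10.5 library was above every E9.5 library, by 2.49 log2 units (SE 0.227, adjusted p = 3.39e-07) in the dorsal and 1.32 log2 units (SE 0.227, adjusted p = 0.000245) in the ventral part. Il21r reached 0.5 RPM only in E10.5 libraries and so passed the filter through the later stage, which its adjusted p-values do not allow for.

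Il15ra, which presents interleukin 15, was low everywhere. It was at 0.393, 0.215 and 0.171 RPM in E9 AoD and 0.524, 0.278 and 0.285 RPM in E9 AoV. At E10.5 Il15ra was at 0.487, 0.376 and 0.450 RPM in E10 AoD, 0.337, 0.460 and 0.303 RPM in E10 AoV and 0.178, 0.206 and 0.113 RPM in E10 UGR. E10 AoD was 1.03 log2 units (SE 0.259, adjusted p = 0.00526) above E10 UGR, a value of 0.96 without E10 AoD replicate 1 and of 0.88 without E10 UGR replicate 3. Il13ra1, which with Il4ra forms the receptor for interleukins 4 and 13 on cells outside the blood, was lowest in E9 AoD. Il13ra1 was at 2.75, 3.52 and 2.80 RPM in E9 AoD and 6.79, 8.21 and 7.84 RPM in E9 AoV. At E10.5 Il13ra1 was at 6.30, 7.70 and 7.13 RPM in E10 AoD, 6.04, 6.68 and 6.40 RPM in E10 AoV and 9.72, 9.71 and 9.66 RPM in E10 UGR. No E9 AoD library reached the lowest of the others, and the differences were 1.31 log2 units (SE 0.106, adjusted p = 1.44e-07) to E9 AoV and 1.20 log2 units (SE 0.106, adjusted p = 2.54e-07) to E10 AoD. Il3ra, the chain that binds interleukin 3, a growth factor of HSCs, was at 4.57, 3.47 and 3.19 RPM in E9 AoD and 6.36, 5.10 and 5.37 RPM in E9 AoV. At E10.5 Il3ra was at 4.41, 4.44 and 5.09 RPM in E10 AoD, 5.11, 5.88 and 5.08 RPM in E10 AoV and 3.70, 3.99 and 3.97 RPM in E10 UGR. None of its differences passed the fold threshold, the largest being 0.58 log2 units (SE 0.127, adjusted p = 0.00162) between E9 AoV and E9 AoD.

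Receptors of the interleukin 17 and interleukin 10 families included the largest ventral bias of all members. Il17re (ENSMUSG00000043088, chr6:113408478-113420745), which with Il17ra binds interleukin 17C, was at 0.590, 0.457 and 0.599 RPM in E9 AoD and 2.76, 2.48 and 3.21 RPM in E9 AoV. At E10.5 Il17re was at 0, 0.0502 and 0.118 RPM in E10 AoD, 1.87, 1.94 and 2.42 RPM in E10 AoV and 1.16, 0.658 and 0.479 RPM in E10 UGR. All 3 E10 AoD libraries, with about 7 reads together, lay below all others. E10 AoV was above E10 AoD by 3.86 log2 units (SE 0.285, adjusted p = 6.29e-08), E9 AoV above E9 AoD by 2.17 log2 units (SE 0.285, adjusted p = 1.87e-05), and Il17re fell by 2.12 log2 units (SE 0.285, adjusted p = 1.66e-05) between the stages in the dorsal part. E10 UGR lay between, below E10 AoV by 1.40 log2 units (SE 0.285, adjusted p = 0.00167) and above E10 AoD by 2.47 log2 units (SE 0.285, adjusted p = 5.64e-06). Il17rb, the partner of Il17b, was at 0.197, 0.564 and 0.171 RPM in E9 AoD and 0.274, 0.255 and 0.190 RPM in E9 AoV. At E10.5 Il17rb was at 0.102, 0.125 and 0.0473 RPM in E10 AoD, 0.104, 0.205 and 0.256 RPM in E10 AoV and 0.148, 0.0822 and 0.0845 RPM in E10 UGR. No comparison of Il17rb was called, the nearest being -1.0 log2 units (SE 0.322, adjusted p = 0.0157) between the dorsal stages, just under the fold threshold before rounding.

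Il28ra, now named Ifnlr1, binds the type III interferons and pairs with Il10rb. It was at 0.860, 0.672 and 0.470 RPM in E9 AoD and 3.53, 4.01 and 3.68 RPM in E9 AoV. At E10.5 Il28ra was at 0.154, 0.301 and 0.284 RPM in E10 AoD, 0.571, 0.946 and 0.489 RPM in E10 AoV and 0.800, 1.05 and 0.788 RPM in E10 UGR. Each E9 AoV library was at least at 3.53 RPM and no other exceeded 1.05 RPM. E9 AoV was 2.35 log2 units (SE 0.244, adjusted p = 1.78e-06) above E9 AoD, and the level fell by 2.36 log2 units (SE 0.244, adjusted p = 1.87e-06) in the ventral and by 1.14 log2 units (SE 0.244, adjusted p = 0.001) in the dorsal part. The ventral bias was still called at E10.5 (1.13 log2 units, SE 0.244, adjusted p = 0.00195), and E10 AoD was below E10 UGR by 1.52 log2 units (SE 0.244, adjusted p = 0.000146). The dorsal fall was 0.94 to 0.97 in size without E10 AoD replicate 1 or without E9 AoD replicate 1, and the E10.5 ventral bias 0.89 to 0.92 without E10 AoV replicate 2 or without E10 AoD replicate 1. Il22ra1, the receptor for interleukin 22 on epithelia and liver, was at 0.270, 0.269 and 0.107 RPM in E9 AoD and 0.387, 0.626 and 0.642 RPM in E9 AoV. At E10.5 Il22ra1 was at 0.0256, 0.10 and 0.0710 RPM in E10 AoD, 0.233, 0.435 and 0.303 RPM in E10 AoV and 0.415, 0.226 and 0.451 RPM in E10 UGR. E10 AoD was lowest without overlap, 1.35 log2 units (SE 0.299, adjusted p = 0.00233) below E10 AoV and 1.48 log2 units (SE 0.299, adjusted p = 0.00105) below E10 UGR, and E9 AoV was above E9 AoD by 1.07 log2 units (SE 0.299, adjusted p = 0.00835), a difference of 0.79 to 0.98 without E9 AoD replicate 3, E9 AoV replicate 2 or E9 AoV replicate 3. Il22ra1 reached 0.5 RPM only in 2 E9 AoV libraries and so passed the filter through that group. The liver and gut endoderm markers were also highest in E9 AoV, where Il28ra stood apart while Il22ra1 overlapped with E10 AoV and E10 UGR, and their part in either level was not tested. At E10.5 the same markers summed to 2.10 to 3.09 RPM in E10 AoV and 9.44 to 13.4 RPM in E10 AoD. In E10 AoD most of that sum was Foxa1, at a mean of 11.1 RPM.

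Of the TNF ligands, Tnf (ENSMUSG00000024401, chr17:35336326-35338952), the founding inflammatory cytokine of the family, was near the limit of counting at E9.5 and above it at E10.5. Tnf was at 0, 0.0269 and 0.0214 RPM in E9 AoD and 0.160, 0.0464 and 0.0238 RPM in E9 AoV. At E10.5 Tnf was at 0.615, 0.251 and 0.402 RPM in E10 AoD, 0.389, 0.537 and 0.512 RPM in E10 AoV and 0.444, 0.411 and 0.366 RPM in E10 UGR. All 9 E10.5 libraries were above all 6 E9.5 libraries, and the rise was 1.78 log2 units (SE 0.287, adjusted p = 0.000141) in the ventral and 2.12 log2 units (SE 0.287, adjusted p = 1.82e-05) in the dorsal part. Tnf reached 0.5 RPM in 3 libraries, all at E10.5, and so passed the filter through the later stage. About 2 reads stand behind the E9 AoD value and 51 behind E10 AoD, a ratio of 26.2 with a 95% counting interval from 6.90 to 223. Macrophage markers rose between the same groups, from 5.81 to 10.1 RPM to 64.7 to 73.3 RPM in AoD and from 11.2 to 14.1 RPM to 50.2 to 58.3 RPM in AoV. Hematopoietic markers (7 of 8 names in the table) went from 12.9 to 15.7 RPM to 38.5 to 45.0 RPM and from 27.7 to 33.7 RPM to 53.4 to 62.4 RPM, and the part of either list in the rise of Tnf, Il6ra, Il16, Il21r, Tnfrsf11a, Tnfrsf13b and Tnfrsf26 was not tested.

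Tnfsf18, the ligand of the GITR receptor, was the TNF ligand of the early dorsal part. It was at 0.983, 0.833 and 0.898 RPM in E9 AoD and 0.251, 0.0464 and 0.0713 RPM in E9 AoV. At E10.5 Tnfsf18 was at 0.102, 0 and 0.0237 RPM in E10 AoD, 0 RPM in every E10 AoV library and 0, 0 and 0.0282 RPM in E10 UGR. The E9 AoD libraries were above all others by a wide gap, 2.89 log2 units (SE 0.313, adjusted p = 1.97e-06) above E10 AoD and 2.28 log2 units (SE 0.313, adjusted p = 2.81e-05) above E9 AoV. Tnfsf18 reached 0.5 RPM only in the E9 AoD libraries and so passed the filter through the group where it was high. No read was found in E10 AoV, which puts it at least 1.58-fold lower than the E9 AoV mean at a floor of 3 reads (0.0778 RPM in the E10 AoV library of lowest depth), and that call (-1.05 log2 units, SE 0.313, adjusted p = 0.0133) was lost without E9 AoV replicate 1 (-0.66). Its receptor Tnfrsf18 was at 0.416, 0.101 and 0.452 RPM in E9 AoD and 0.432, 0.320 and 0.376 RPM in E9 AoV. At E10.5 Tnfrsf18 was at 0.522, 0.456 and 0.105 RPM in E10 AoD, 0.658, 0.674 and 0.409 RPM in E10 AoV and 0.540, 0.520 and 0.793 RPM in E10 UGR. The groups overlapped, no comparison was called, and 27.2% of its exon length overlaps another gene.

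Tnfsf12 (TWEAK), a ligand that acts on stroma and endothelium, was the most abundant TNF ligand per length, at a mean of 2.63 RPM per kb. Tnfsf12 was at 3.50, 3.48 and 2.35 RPM in E9 AoD and 5.73, 4.67 and 5.49 RPM in E9 AoV. At E10.5 Tnfsf12 was at 5.40, 5.86 and 5.53 RPM in E10 AoD, 7.97, 7.72 and 8.51 RPM in E10 AoV and 7.42, 6.85 and 7.57 RPM in E10 UGR. It was lowest in E9 AoD and highest in E10 AoV without overlap, with differences below the fold threshold (0.85 log2 units, SE 0.130, adjusted p = 5.58e-05 and 0.60 log2 units, SE 0.130, adjusted p = 0.00154 between the stages). Other genes, among them Tnfsf13, overlap 78.1% of its exon length, so the level cannot be assigned to Tnfsf12 alone. Tnfsf9, a costimulatory ligand of T cells, was at 2.53, 2.15 and 2.29 RPM in E9 AoD and 2.80, 4.01 and 3.54 RPM in E9 AoV. At E10.5 Tnfsf9 was at 1.54, 1.23 and 1.47 RPM in E10 AoD, 2.02, 2.17 and 1.77 RPM in E10 AoV and 1.96, 1.56 and 1.61 RPM in E10 UGR. It was highest in E9 AoV, and its lower E10.5 levels (-0.76 log2 units, SE 0.146, adjusted p = 0.000666 and -0.68 log2 units, SE 0.146, adjusted p = 0.00104) did not pass the fold threshold. Ltb, which with Lta forms lymphotoxin, was at 0.270, 0.107 and 0.128 RPM in E9 AoD and 0.342, 0.278 and 0.0951 RPM in E9 AoV. At E10.5 Ltb was at 0.256, 0.201 and 0.379 RPM in E10 AoD, 0.415, 0.588 and 0.489 RPM in E10 AoV and 0.326, 0.226 and 0.169 RPM in E10 UGR. E10 AoV was above the E9 AoV libraries without overlap, but by 0.89 log2 units (SE 0.315, adjusted p = 0.0313), which is not a call.

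Members called higher at E10.5 in both aorta parts numbered 7 (Il16, Il1rapl1, Il21r, Il6ra, Tnf, Tnfrsf13b and Tnfrsf26), and their promoters are shown because they moved together. The RefSeq table held 1 start for 5 of them, several for Il16 and none for Tnfrsf26. The 250 bases before each start follow, from 5′ to 3′ on the gene's strand in GRCm38.p6, with matches on either strand in capitals. Searched were the TATA box (TATAAA), the consensus of NF-kB sites by its name, and an ETS-like site, GAGGAA, whose reverse complement is what shows in capitals where the match is on the other strand.
Tnf (chr17:35202008-35202257, minus strand): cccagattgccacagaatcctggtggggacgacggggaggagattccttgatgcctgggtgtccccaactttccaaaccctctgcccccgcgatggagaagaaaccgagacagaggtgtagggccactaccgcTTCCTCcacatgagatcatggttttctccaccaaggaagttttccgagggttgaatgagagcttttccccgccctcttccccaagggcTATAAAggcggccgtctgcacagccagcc
Il6ra (chr3:89913197-89913446, minus strand): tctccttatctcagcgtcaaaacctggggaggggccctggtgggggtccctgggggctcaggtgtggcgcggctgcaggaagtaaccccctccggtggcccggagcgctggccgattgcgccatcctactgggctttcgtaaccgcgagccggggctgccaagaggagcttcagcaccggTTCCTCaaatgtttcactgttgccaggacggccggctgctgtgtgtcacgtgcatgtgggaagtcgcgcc
Il1rapl1 (chrX:88115949-88116198, minus strand): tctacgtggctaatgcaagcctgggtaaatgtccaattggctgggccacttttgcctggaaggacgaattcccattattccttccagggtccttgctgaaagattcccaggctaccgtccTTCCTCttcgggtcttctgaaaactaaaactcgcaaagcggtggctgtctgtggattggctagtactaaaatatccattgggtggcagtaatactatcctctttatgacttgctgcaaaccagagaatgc
Il21r (chr7:125603179-125603428, plus strand): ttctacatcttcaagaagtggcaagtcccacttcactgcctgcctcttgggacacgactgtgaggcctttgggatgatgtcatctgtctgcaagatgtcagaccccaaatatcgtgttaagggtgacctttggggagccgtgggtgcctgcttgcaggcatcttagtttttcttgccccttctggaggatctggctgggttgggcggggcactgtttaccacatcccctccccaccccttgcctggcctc
Tnfrsf13b (chr11:61126505-61126754, plus strand): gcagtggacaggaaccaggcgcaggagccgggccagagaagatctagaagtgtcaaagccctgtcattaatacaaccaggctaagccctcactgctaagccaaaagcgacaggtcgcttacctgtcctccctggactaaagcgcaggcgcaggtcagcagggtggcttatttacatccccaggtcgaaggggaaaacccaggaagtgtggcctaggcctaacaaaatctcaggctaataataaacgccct

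The Tnf promoter held TATAAA from 29 to 24 bases before the start, which 12.4% of all 32851 promoters in the table hold somewhere in the same window. Tnf, Il6ra and Il1rapl1 held the ETS-like letters, as did 23.3% of all promoters, and Il21r and Tnfrsf13b held none of the 3 motifs. The NF-kB consensus was in none of the 5 and in 7.25% of all promoters, and no matches overlapped. A match describes letters in this window and is not evidence of binding.

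The TNF receptors held 3 of the 4 most abundant members per length. Tnfrsf1a, through which TNF signals in most cells, was at 30.4, 31.6 and 24.6 RPM in E9 AoD and 43.6, 42.0 and 38.3 RPM in E9 AoV. At E10.5 Tnfrsf1a was at 39.8, 42.6 and 41.1 RPM in E10 AoD, 51.8, 52.9 and 50.3 RPM in E10 AoV and 56.1, 58.3 and 55.7 RPM in E10 UGR. It was lowest in E9 AoD and highest in E10 UGR without overlap, but no difference passed the fold threshold, the stage differences being 0.32 log2 units (SE 0.0769, adjusted p = 0.00309) and 0.52 log2 units (SE 0.0769, adjusted p = 4.26e-05). Tnfrsf1b, the TNF receptor of hematopoietic and endothelial cells, was at 2.58, 2.61 and 2.72 RPM in E9 AoD and 2.21, 1.95 and 2.09 RPM in E9 AoV. At E10.5 Tnfrsf1b was at 4.87, 4.92 and 4.95 RPM in E10 AoD, 3.29, 4.40 and 4.01 RPM in E10 AoV and 3.79, 3.29 and 3.32 RPM in E10 UGR. Each E10.5 library was above each E9.5 library, by 0.87 log2 units (SE 0.108, adjusted p = 1.2e-05) in the ventral and 0.87 log2 units (SE 0.108, adjusted p = 7.07e-06) in the dorsal part, again below the threshold. Tnfrsf21, a death domain receptor, was at 35.8, 36.7 and 42.3 RPM in E9 AoD and 28.4, 30.2 and 29.9 RPM in E9 AoV. At E10.5 Tnfrsf21 was at 34.5, 32.2 and 33.4 RPM in E10 AoD, 18.9, 20.5 and 18.4 RPM in E10 AoV and 27.0, 27.8 and 30.6 RPM in E10 UGR. E10 AoV held the lowest levels, -0.79 log2 units (SE 0.0690, adjusted p = 3.63e-07) against E10 AoD, without passing.

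Tnfrsf19 (ENSMUSG00000060548, chr14:61582671-61665692), also called TROY and known from neural and skin epithelia, fell in both parts of the aorta. It was at 68.3, 69.0 and 95.8 RPM in E9 AoD and 61.6, 68.8 and 75.3 RPM in E9 AoV. At E10.5 Tnfrsf19 was at 19.3, 18.3 and 17.8 RPM in E10 AoD, 18.0, 16.2 and 14.7 RPM in E10 AoV and 44.1, 47.4 and 42.9 RPM in E10 UGR. The 6 E10.5 aorta libraries were at most at 19.3 RPM and all others at least at 42.9 RPM. It fell by 2.07 log2 units (SE 0.114, adjusted p = 3.85e-09) in the ventral and by 2.05 log2 units (SE 0.114, adjusted p = 3.1e-09) in the dorsal part, and E10 UGR was between, with differences of -1.46 log2 units (SE 0.114, adjusted p = 2.12e-07) for E10 AoV and -1.27 log2 units (SE 0.114, adjusted p = 4.18e-07) for E10 AoD against the same UGR libraries. These 4 calls passed under every alternative.

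RANK (Tnfrsf11a), the receptor of osteoclast precursors, and its decoy osteoprotegerin (Tnfrsf11b) differed in pattern. Tnfrsf11b was at 0.172, 0.242 and 0.663 RPM in E9 AoD and 1.57, 2.46 and 2.02 RPM in E9 AoV. At E10.5 Tnfrsf11b was at 1.36, 0.803 and 0.923 RPM in E10 AoD, 1.01, 0.588 and 0.629 RPM in E10 AoV and 0.593, 0.473 and 0.507 RPM in E10 UGR. E9 AoV was above all other groups, 2.33 log2 units (SE 0.324, adjusted p = 3.13e-05) above E9 AoD, and the level fell by 1.34 log2 units (SE 0.324, adjusted p = 0.00347) in the ventral part and rose by 1.42 log2 units (SE 0.324, adjusted p = 0.00169) in the dorsal part, as for Il1r1. Tnfrsf11a was at 0.492, 0.134 and 0.299 RPM in E9 AoD and 0.752, 0.649 and 0.499 RPM in E9 AoV. At E10.5 Tnfrsf11a was at 1.69, 1.83 and 1.28 RPM in E10 AoD, 1.35, 1.23 and 1.35 RPM in E10 AoV and 1.04, 0.699 and 0.760 RPM in E10 UGR. It rose by 2.14 log2 units (SE 0.271, adjusted p = 9.06e-06) in the dorsal part, while the ventral difference of 0.96 log2 units (SE 0.271, adjusted p = 0.0096) did not pass, and their ligand Tnfsf11 was at most at 0.396 RPM. Tnfrsf12a (Fn14), the receptor for Tnfsf12, was at 1.92, 1.64 and 1.80 RPM in E9 AoD and 5.27, 4.52 and 4.33 RPM in E9 AoV. At E10.5 Tnfrsf12a was at 4.0, 2.56 and 3.60 RPM in E10 AoD, 4.41, 3.43 and 4.01 RPM in E10 AoV and 2.43, 2.08 and 3.63 RPM in E10 UGR. E9 AoD was lowest without overlap, 1.35 log2 units (SE 0.191, adjusted p = 3.85e-05) below E9 AoV.

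Tnfrsf13b (TACI), known from B cells, rose in both parts. Tnfrsf13b was at 0.246, 0.430 and 0.428 RPM in E9 AoD and 0.547, 0.441 and 0.499 RPM in E9 AoV. At E10.5 Tnfrsf13b was at 1.97, 1.68 and 1.63 RPM in E10 AoD, 1.30, 1.46 and 1.37 RPM in E10 AoV and 1.07, 1.11 and 0.817 RPM in E10 UGR. Every E10.5 library was above every E9.5 library, by 2.01 log2 units (SE 0.178, adjusted p = 2.41e-07) in the dorsal and 1.31 log2 units (SE 0.178, adjusted p = 2.74e-05) in the ventral part. Tnfrsf9, the receptor for Tnfsf9, was highest in E10 UGR. It was at 0.516, 0.188 and 0.128 RPM in E9 AoD and 0.433, 0.232 and 0.309 RPM in E9 AoV. At E10.5 Tnfrsf9 was at 0.282, 0.125 and 0.213 RPM in E10 AoD, 0.441, 0.307 and 0.326 RPM in E10 AoV and 1.01, 0.699 and 0.620 RPM in E10 UGR. E10 AoD was below E10 UGR by 1.52 log2 units (SE 0.329, adjusted p = 0.00175), while E10 AoV (-0.92 log2 units, SE 0.329, adjusted p = 0.0482) stayed below the fold threshold.

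Tnfrsf26 and Tnfrsf23, on either side of Tnfrsf22 in a rodent cluster that includes decoy receptors for TRAIL (Tnfsf10), were both higher in the E10.5 aorta than in the urogenital ridge. Tnfrsf26 (ENSMUSG00000045362) was at 0.492, 0.699 and 0.321 RPM in E9 AoD and 0.547, 0.672 and 0.261 RPM in E9 AoV. At E10.5 Tnfrsf26 was at 1.72, 1.41 and 1.82 RPM in E10 AoD, 1.27, 1.53 and 2.26 RPM in E10 AoV and 0.148, 0.206 and 0.225 RPM in E10 UGR. The 3 E10 UGR libraries were lowest of all 15 and the 6 E10.5 aorta libraries highest, with rises of 1.62 log2 units (SE 0.292, adjusted p = 0.000365) and 1.58 log2 units (SE 0.292, adjusted p = 0.000315) between the stages and differences of 2.58 log2 units (SE 0.292, adjusted p = 8.48e-06) in E10 AoV and 2.58 log2 units (SE 0.292, adjusted p = 4.56e-06) in E10 AoD against the same UGR libraries. Tnfrsf23 was at 0.756, 0.773 and 0.646 RPM in E9 AoD and 0.706, 0.720 and 0.769 RPM in E9 AoV. At E10.5 Tnfrsf23 was at 2.0, 2.17 and 2.36 RPM in E10 AoD, 1.41, 1.27 and 1.96 RPM in E10 AoV and 0.755, 0.786 and 0.356 RPM in E10 UGR. It rose by 1.46 log2 units (SE 0.222, adjusted p = 5.21e-05) in the dorsal part and was above E10 UGR by 1.70 log2 units (SE 0.222, adjusted p = 2.03e-05) in E10 AoD and by 1.21 log2 units (SE 0.222, adjusted p = 0.000719) in E10 AoV, the latter 0.90 without E10 UGR replicate 3. Tnfrsf23 shares 21.5% of its 50-base windows with Tnfrsf22, so part of its reads is uncertain.

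Whether the stage changed the ventral and dorsal parts differently was tested as an interaction, the ventral change minus the dorsal change. It was called for 13 members (4 higher, 9 lower), beside 11.0% of all tested genes (4.12% higher, 6.89% lower). Il31ra (3.01 log2 units, SE 0.503, adjusted p = 0.000378), Tnfsf18 (1.84 log2 units, SE 0.443, adjusted p = 0.00585), Il17re (1.70 log2 units, SE 0.403, adjusted p = 0.00538) and Il33 (1.25 log2 units, SE 0.282, adjusted p = 0.00379) had the higher ventral value. For Tnfsf18 that value is set by the floor, since E9 AoV was already at 0.123 RPM on average and E10 AoV at 0, so the ventral fall is only a lower bound and its size cannot be compared with the dorsal one. Il1r1 (-3.24 log2 units, SE 0.314, adjusted p = 2.92e-06), Tnfrsf11b (-2.76 log2 units, SE 0.458, adjusted p = 0.000358) and Il17d (-1.92 log2 units, SE 0.262, adjusted p = 6.66e-05) had the largest differences of the other sign, and the first 2 of these were called in opposite directions in the 2 parts. The same sign was called for Il13ra1, Il28ra, Tnfrsf11a, Il21r, Tnfrsf12a and Il27ra, of which Tnfrsf12a and Il21r lost the call without E10 AoD replicate 1 and without E9 AoD replicate 2. Tnfrsf19 (-0.02 log2 units, SE 0.162, adjusted p = 0.956) and Tnf (-0.34 log2 units, SE 0.407, adjusted p = 0.597) were far from a call. The interactions of Il27ra and Tnfrsf11a were lost on leaving out any of 10 and 8 libraries.

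**Figure D5:**
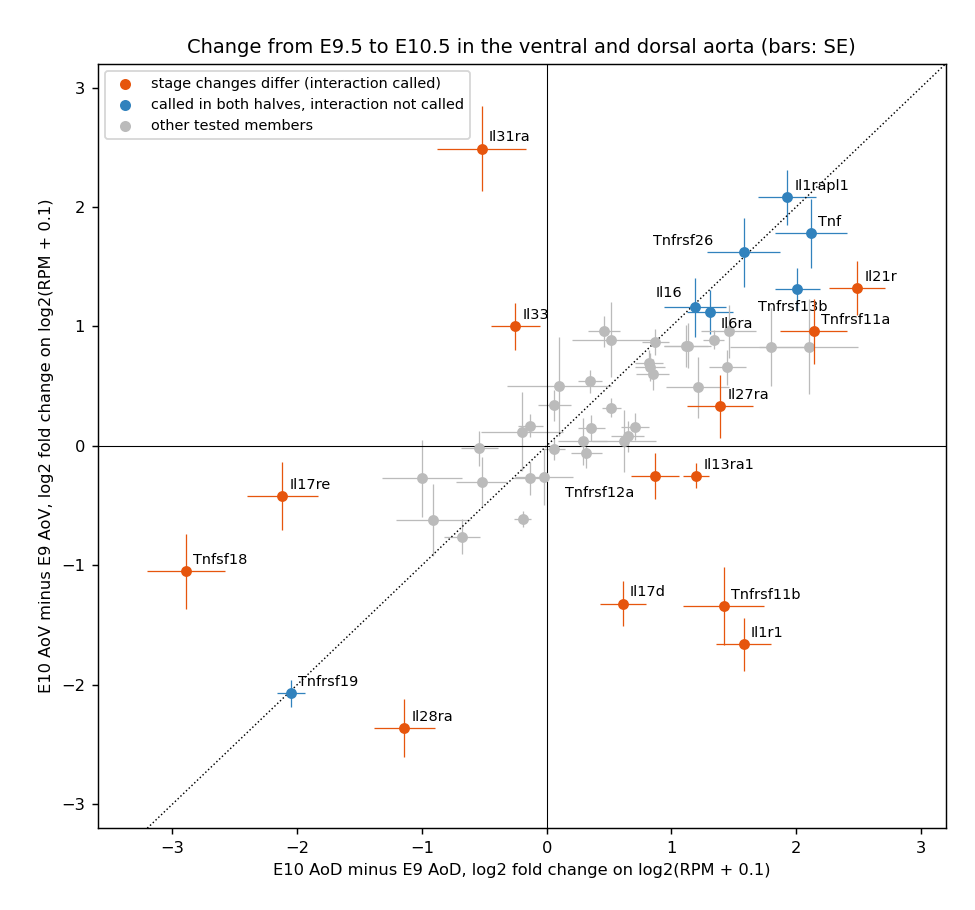
Change from E9.5 to E10.5 of the 55 tested members in the dorsal aorta (horizontal) and the ventral aorta (vertical), as log2 fold change on log2(RPM + 0.1) with SE bars; the dotted line marks equal change. The 13 members with a called interaction (orange) include Il31ra (2.49 ventral, -0.52 dorsal) and Il1r1 (-1.66 ventral, 1.58 dorsal), and Tnfrsf19 lies on the dotted line at -2.07 and -2.05.

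Several members lie next to each other in the genome, with 9 pairs of tested members under 50 kb apart in NCBIM37, and the neighbours named here were chosen after their values were seen. Il6st and Il31ra are 15.9 kb apart on chromosome 13, and from E9 AoV to E10 AoV Il31ra rose by 2.49 log2 units while Il6st differed by 0.15 log2 units (SE 0.106, adjusted p = 0.262). Il17re and Il17rc lie 0.675 kb apart on chromosome 6, and in E10 AoV against E10 AoD Il17re was higher by 3.86 log2 units and Il17rc by 0.44 log2 units (SE 0.131, adjusted p = 0.0171). Il28ra and Il22ra1, 20.0 kb apart on chromosome 4, were both called higher in the ventral part at both stages. Il4ra and Il21r, 24.0 kb apart on chromosome 7, both rose in the dorsal part, Il4ra by 1.34 log2 units (SE 0.0828, adjusted p = 7.62e-09). In the cluster on chromosome 7, Tnfrsf22 differed between E10 AoV and E10 UGR by -0.38 log2 units (SE 0.0983, adjusted p = 0.00918), while its neighbours Tnfrsf26 and Tnfrsf23 were called higher. Another entry overlaps 41.5% of the exon length of Tnfrsf22, and 55.7% of its 50-base windows occur in other entries, Tnfrsf23 among them. Its reads therefore cannot be assigned with certainty.

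Genes of the same pathways that the name rule does not reach were read from a list of 50 family members, cytokine receptors and adaptors, of which 44 were tested. In E10 AoV against E9 AoV, 5 were higher and 4 lower, in E10 AoD against E9 AoD 6 and 1, in E10 AoV against E10 AoD 4 and 4, and in E9 AoV against E9 AoD 6 and 2. Against E10 UGR there were 2 and 1 in E10 AoV and 5 and 1 in E10 AoD. Of all tested genes, 11.0%, 12.6%, 10.1%, 11.8%, 7.57% and 11.3% were called in these comparisons, in the same order. Whether the list differs from these shares was not tested. Fas, a death receptor of the TNF family, was at 5.46 ± 0.635 RPM (SD, n = 3) in E9 AoV, 0.672 ± 0.276 RPM in E9 AoD and 0.260 ± 0.0321 RPM in E10 UGR, with differences of 2.90 log2 units (SE 0.211, adjusted p = 4.87e-08) for E9 AoV against E9 AoD and 2.93 log2 units (SE 0.211, adjusted p = 9e-08) for E10 AoV against E10 UGR. Cntfr, which like Il6st takes part in gp130 receptors, was at 27.8 ± 2.10 RPM in E10 AoD but at 81.1 ± 6.18 RPM in E10 AoV. Osmr, the partner of Il31ra, rose in both parts. It went from 0.713 ± 0.00600 to 1.60 ± 0.121 RPM in the ventral part, where Il31ra was also called higher (1.06 log2 units, SE 0.154, adjusted p = 5.13e-05), and from 0.614 ± 0.0702 to 2.15 ± 0.442 RPM in the dorsal part, where Il31ra was not called (1.64 log2 units for Osmr, SE 0.154, adjusted p = 4.62e-07).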

How the data were processed

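TruSeq libraries of RNA from 15 tissue pools were sequenced, and the authors aligned reads to NCBIM37 (mm9) with TopHat and summed them over Ensembl genes in GeneProf, which divides a read that fits several genes among them. The submitters' processing notes name Bowtie 0.12.3. The deposited table holds RPM, which the authors calculated as reads-per-million over gene-assigned reads, rounded, and did not adjust for length. Its 12 columns of the authors' own comparisons (log2 fold changes and adjusted p-values of 6 pairs of groups) were not used. The table holds no counts, and only 55.6% to 57.8% of low values were whole multiples of 1 read, so no count test was run; reads quoted here are RPM times inferred depth, and their intervals cover counting error only, since PCR copies are not independent molecules.

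The 18553 genes that reached 0.5 RPM in any library were tested. A gene high in a single group can pass through that group alone, and the adjusted p-values do not allow for this. In R 4.3.3, limma 3.58.1 was fitted to log2(RPM + 0.1) of all 15 libraries, with a mean for each group, empirical Bayes moderation and an intensity trend. On simulated data of 17723 genes for E10 AoV against E9 AoV, in which 200 genes averaging over 1 RPM were changed, the fit called 100 of 100 genes changed by 2 log2 units, 99 of 100 changed by 3, and 0 unchanged genes. No gene averaging 1 RPM or less was changed and no change was under 2 log2 units, so recovery of such differences was not measured. The simulated noise was independent between libraries. Fold changes on this scale understate those of low genes. Positions and exon lengths came from GENCODE vM1 on NCBIM37, where all 107 members were found, and promoters from RefSeq on GRCm38.p6. The members and gene lists were chosen with earlier results of these data known. Named with values were all members called in E10 AoV against E9 AoV or E10 AoD, the 5 most changed in each direction elsewhere, the 3 most abundant of each role, their measured partners, and Il1b, Il1r1, Il3, Il3ra, Il6, Il6ra, Il6st, Tnf, Tnfrsf1a, Tnfrsf1b and Il27ra, of which Il3 was not analysed. The study had 3 separate experiments, but the labels do not say that a replicate number marks one. The main fit has no replicate block. Deviations from the group means correlated between 0.190 and 0.452 in the 3 same-numbered pairs of E9 AoD and E9 AoV libraries, and they did so above 0.1 in every pair for no other 2 groups. A blocked fit of E9 AoD and E9 AoV was therefore added after the data were seen. E10 AoV and E10 UGR fell just short, at 0.0889 to 0.168 in same-numbered pairs and -0.114 to -0.0217 in the others. No blocked fit of E10 AoV and E10 UGR alone was made. Alternatives were the pseudocount, the filter on low values, the scaling, the fold threshold, the groups in the fit, a replicate block and leaving out each library.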

Additional observations from a re-analysis of the deposited data

Results flagged for a closer look

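For 13 members the stages differed by another amount in the ventral than in the dorsal aorta, by the interaction term in limma (ventral change minus dorsal change, log2 units). The ventral value was higher for Il31ra (3.01), Tnfsf18 (1.84), Il17re (1.70) and Il33 (1.25). It was lower for Il1r1 (-3.24), Tnfrsf11b (-2.76), Il17d (-1.92), Il13ra1 (-1.45), Il28ra (-1.22), Tnfrsf11a (-1.19), Il21r (-1.17), Tnfrsf12a (-1.11) and Il27ra (-1.06). The value of Tnfsf18 is set by the floor, as E10 AoV held no read and E9 AoV was near it, so its ventral fall is only a lower bound. Of the 13, Il1r1 and Tnfrsf11b changed in opposite directions, each called in both parts.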

How the results depend on the processing

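With a pseudocount of 1 RPM, 4 members were called between the ventral stages, 5 between the dorsal stages, 2 between positions at E10.5, 8 between positions at E9.5, 3 in E10 AoV and 2 in E10 AoD against E10 UGR, and 6 in the interaction. Of all tested genes, 3.96% to 6.90% were called with that pseudocount. With no fold threshold the first 6 counts were 33, 43, 22, 29, 20 and 25, beside 46.0%, 57.8%, 35.5%, 47.7%, 29.1% and 39.2% of all tested genes. Leaving out each library in turn gave 14 to 18, 24 to 27, 7 to 8, 12 to 15, 7 to 8, 9 to 12 and 10 to 13, in the same order, and ended 15 of the 86 called differences of named members. Quantile normalization ended 11 of the 86, no filter 2, and median-of-ratios scaling none. Of the 86, 79 could be tested with only the groups compared in the fit and 82 with 0.5 RPM in at least 3 libraries, and none of these was lost. Fitted with a replicate block, the counts stayed at 14, 24, 8, 14, 7, 11 and 13, and none of the 86 calls was lost. Within E9 AoV and E9 AoD, the 2 groups whose same-numbered pairs all correlated above 0.1, a fit with the replicate block called 13 members in place of 14, and every named call it tested was kept. Over all groups, 11 of 30 same-numbered pairs correlated above 0.1 and 7 of 60 others, and 11 of 15 libraries were nearest to their own number. At 1 RPM 46 members were measured in at least 1 library, and 51 at 0.5 RPM in at least 3, in place of 55. At this depth, values under 0.0617 to 0.0889 RPM rest on 3 reads or fewer. The larger pseudocount by its construction shrinks the fold changes of low members; the cause of the other losses was not tested.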
